A study of Mus musculus with 40 samples.

Results

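In oligodendrocyte precursor cell (OPC) cultures from the mouse telencephalon, 187 autosomal regions carried both H3K4me3 and H3K27me3 in control cells while no H3K27me3 peak reached them in control cells from the brainstem. The regions were selected on measured peaks. A base had to lie under an H3K4me3 peak in at least 2 of the 3 telencephalon control cultures and under an H3K27me3 peak in at least 2 of these 3 cultures. Contiguous stretches of at least 200 bp were kept when neither brainstem control culture had an H3K27me3 peak on them. Of the 4422 autosomal stretches of at least 200 bp under both marks in telencephalon controls, the 187 members made up 4.23%, and the other 4235 carried an H3K27me3 peak of at least 1 brainstem control. These 4235 are called shared regions here, a name that refers to H3K27me3, since brainstem H3K4me3 was not part of the choice.

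H3K4me3 sits at active and poised promoters, and H3K27me3 is written by Polycomb repressive complex 2 over genes held silent. Promoters with both marks are called bivalent, and in stem and progenitor cells they belong mainly to developmental genes such as patterning transcription factors and signalling components. Which of these genes lose H3K27me3 differs between regions of the neural tube, as with the Hox genes of the hindbrain and spinal cord. The K27M mutation of histone H3 interferes with Polycomb repressive complex 2 and lowers H3K27me3 over much of the genome, while some Polycomb targets keep it.

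The OPCs were purified by immunopanning for PDGFRa from litters at postnatal days 5 to 7 in which a Cre transgene active in neural stem and progenitor cells, named AMGFAP-Cre in the sample labels and hGFAP-Cre in the study's methods, switches on a conditional K27M allele at the H3-3a locus. K27M cultures carry Cre and the allele, and Control cultures are their matched littermate counterparts without the mutant histone. Tissue was pooled by region and genotype, and cells were profiled in proliferation medium without differentiation. Cortex in the sample labels is the telencephalon. Cultures 59, 60 and 61 supplied telencephalon, and cultures 59 and 61 supplied brainstem, so 20 libraries were used, 10 for each mark. A culture is a mixture of cells, so a mark present in fewer cells cannot be told apart from a mark that is weaker in every cell.

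The lists differed widely in length. H3K27me3 lists held 4739 to 64808 peaks and H3K4me3 lists 20961 to 31200, and read depth is not part of a peak list, so a missing peak does not show that the mark was absent. Telencephalon Control 59 stood apart, with 12715 H3K27me3 peaks against 49615 and 64808 in Control 60 and 61, and with a median H3K4me3 fold enrichment over input at members of 3.02 against 49.2 and 39.5. Of the brainstem controls, culture 59 had 54227 H3K27me3 peaks and culture 61 had 25632. All 12 OPC marker genes had an H3K4me3 peak at a promoter in each of the 10 libraries, and 0 or 1 of 12 microglia markers did. Of 12 astrocyte markers 7 to 12 had one, of 12 neuron markers 7 to 11, and of 12 endothelial and mural markers 4 to 7. The part of other cell types in the results was not tested.

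Windows of 200 bp inside 5 members are shown because CpG-rich DNA underlies most regions with both marks. Each lies upstream of an annotated transcript start and outside every annotated exon, and is written 5′ to 3′ on the strand of its gene with CG dinucleotides in capitals. The Irx5, Irx2 and Hoxa5 regions had an H3K27me3 peak in all 3 telencephalon K27M libraries, the Wnt7b region in 2 and the Cd24a region in none.
Irx5: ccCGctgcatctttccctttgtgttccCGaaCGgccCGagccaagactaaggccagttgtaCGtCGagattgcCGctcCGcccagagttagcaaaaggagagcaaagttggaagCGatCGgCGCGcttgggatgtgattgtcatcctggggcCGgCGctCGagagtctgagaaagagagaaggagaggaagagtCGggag
Irx2: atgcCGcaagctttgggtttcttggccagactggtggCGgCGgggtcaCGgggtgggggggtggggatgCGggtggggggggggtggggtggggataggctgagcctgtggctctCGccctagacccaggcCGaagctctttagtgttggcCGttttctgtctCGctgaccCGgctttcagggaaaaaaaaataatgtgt
Hoxa5: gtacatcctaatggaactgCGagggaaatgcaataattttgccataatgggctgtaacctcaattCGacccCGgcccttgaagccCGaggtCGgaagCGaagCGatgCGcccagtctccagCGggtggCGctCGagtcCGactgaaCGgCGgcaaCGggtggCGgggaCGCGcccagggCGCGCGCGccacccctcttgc
Wnt7b: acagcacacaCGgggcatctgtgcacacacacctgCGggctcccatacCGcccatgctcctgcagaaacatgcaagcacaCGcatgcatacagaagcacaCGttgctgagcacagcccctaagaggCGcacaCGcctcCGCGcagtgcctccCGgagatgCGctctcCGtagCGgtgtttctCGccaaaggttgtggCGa
Cd24a: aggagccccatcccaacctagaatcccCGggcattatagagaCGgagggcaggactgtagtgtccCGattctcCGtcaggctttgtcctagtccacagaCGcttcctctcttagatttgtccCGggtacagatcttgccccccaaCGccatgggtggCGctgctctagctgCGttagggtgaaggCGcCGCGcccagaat
On GRCm38 (mm10) the windows are chr8:92357425-92357624 on the plus strand for Irx5, chr13:72629625-72629824 on the plus strand for Irx2, chr6:52204588-52204787 on the minus strand for Hoxa5, chr15:85578071-85578270 on the minus strand for Wnt7b and chr10:43579735-43579934 on the plus strand for Cd24a. Each ends directly at a transcript start. For Irx5 and Hoxa5 this is the 5′ start of the gene, and for Irx2, Wnt7b and Cd24a it is a transcript start inside the gene. The windows hold 16 (Irx5), 10 (Irx2), 22 (Hoxa5), 15 (Wnt7b) and 12 (Cd24a) CG dinucleotides. Per 100 bp this is 8, 5, 11, 7.5 and 6, in each case above the median of 3.97 over all members. The windows are thus more CpG-dense than a typical member.

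The members were short pieces of chromatin. Their median length was 443 bp, with a range of 203 to 4270 bp, against a median of 918 bp at shared regions. Together they covered 108699 bp. The longest fragment that missed the length limit had 193 bp, and 2 of the shared regions overlapped a brainstem control peak by fewer than 10 bp. At the other side of that limit, a member near Sept9 lay 2 bp from a brainstem control peak.

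Most members lay at gene starts, and less CpG-dense DNA was found in them than in shared regions. A promoter, taken as 2000 bp before to 1000 bp after a transcript start, was overlapped by 129 of 187 members, or 69.0% (95% Wilson interval 62.0 to 75.2%), and by 77.8% of shared regions (76.6 to 79.1%). Of the rest, 17 overlapped an exon, 17 an intron and 24 were intergenic. Transcript starts inside a gene counted too, so a member at a promoter can lie far from the 5′ start of the gene. The median CpG density was 3.97 CG per 100 bp in members, 5.53 in shared regions, and 3.17 in telencephalon H3K4me3 regions without an H3K27me3 peak in any control. Members thus lay between the other 2 kinds, with quartiles of 2.46 and 5.62 that overlap both.

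Many members lay next to an H3K27me3 peak of a brainstem control, and others had none nearby. The nearest H3K27me3 peak of a brainstem control lay a median of 4075 bp away. For 73 members (39.0%) it was within 1000 bp, and for 159 it was within 50000 bp. The Irx2 members, the Col18a1 member and the Skap2 member at chr6:52011882-52012560 are examples of distances above 100 kb.

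**Figure D1:**
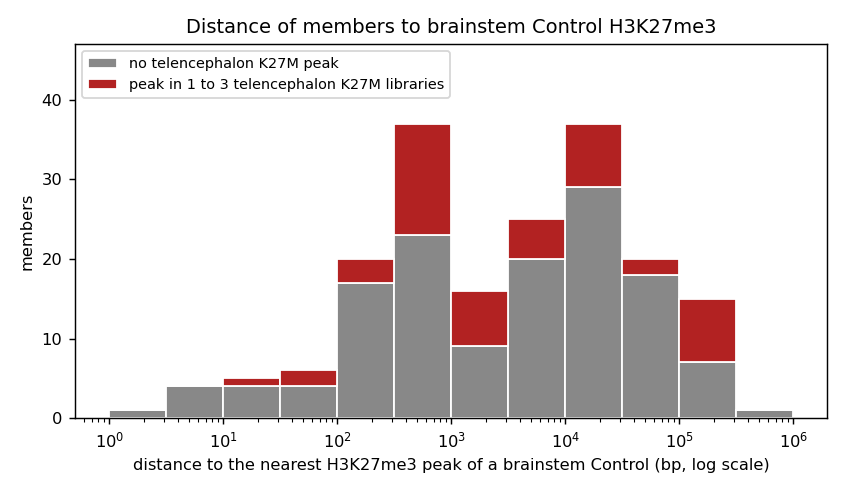
Number of members by the distance to the nearest H3K27me3 peak of either brainstem Control, on a log scale of bp. Grey bars are members with no H3K27me3 peak in telencephalon K27M and red bars, stacked on them, those with a peak in 1 to 3 libraries. The distances run from 2 to 336825 bp with a median of 4075 bp.

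H3K27me3 at the members was uneven among the telencephalon controls, and these values are a description because they chose the members. The share of members with a peak was 22.5% in Control 59, 100% in Control 60 and 96.3% in Control 61. In 145 members the peak was present in cultures 60 and 61 only, in 35 it was present in all 3, and in 7 it was present in 59 and 60. The median fold enrichment of these peaks was 3.13, 2.83 and 2.40 in Control 59, 60 and 61. At shared regions it was 2.61, 5.16 and 4.27. Most members therefore rested on cultures 60 and 61 and on peaks of low enrichment.

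In telencephalon K27M cultures, members had an H3K27me3 peak less often than shared regions in every culture. The share was 14.4% of members and 41.1% of shared regions in culture 59, 23.5% and 66.6% in culture 60, and 21.9% and 60.6% in culture 61. The difference was −36.1 ± 8.46 percentage points (SD, n = 3), negative in 3 of 3 cultures. The two-sided exact sign-flip test gave p = 0.25, the smallest value 3 cultures allow. Shared regions are longer, and with the length classes of the members the difference was −20.9 percentage points. It was −13.8 and −12.4 without telencephalon cultures 60 and 61, and −59.3 without brainstem culture 59.

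The same split held for whole sets of libraries. In 26 of 187 members (13.9%) all 3 telencephalon K27M libraries had an H3K27me3 peak, against 40.8% of shared regions and 39.7% of all 4422 regions. In 137 members (73.3%) none of the 3 had one, against 31.3% of shared regions and 33.0% of all regions. A further 14 members had a peak in 1 library and 10 in 2.

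Members that kept the peak in K27M had the higher median enrichment in Control 60. The median fold enrichment in Control 60 was 2.69 in the 137 members without a K27M peak, 3.01 with 1 library, 7.00 with 2 and 12.1 with 3. The rise was smaller in Control 61, with medians of 2.27, 2.31, 3.73 and 3.84 (a missing peak counted as 0). Among the 46 members with a fold enrichment of 5 or more in Control 60, 54.3% had a peak in all 3 K27M libraries, against 75.6% of 2185 such shared regions. Among the 102 members below 3 it was 0%, against 0.357% of 841 shared regions. Of the 42 members with a peak in Control 59, 25 were kept in all 3 K27M libraries, whereas 1 of the 145 without one was. How far enrichment accounts for the difference between members and shared regions was not tested.

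**Figure D2:**
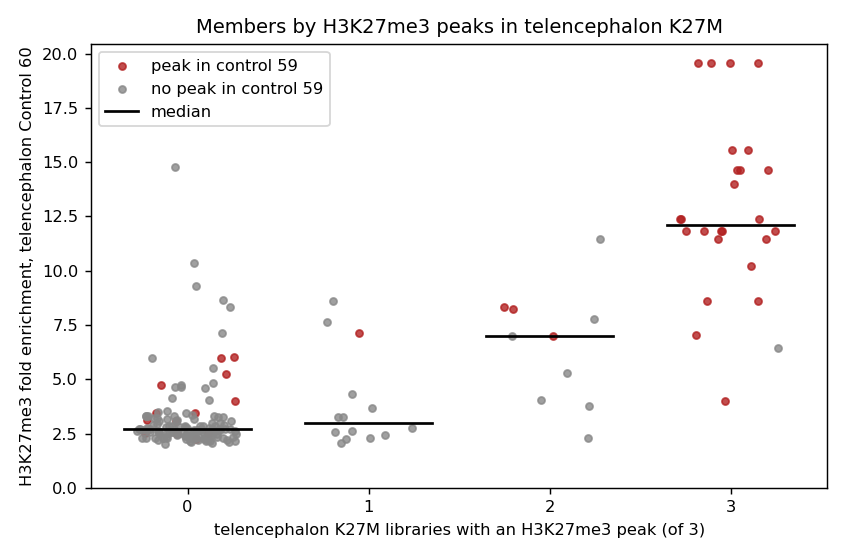
H3K27me3 fold enrichment over input in telencephalon Control 60 (vertical axis) for each of the 187 members, by the number of telencephalon K27M libraries with a peak (horizontal axis). Red points have a peak in Control 59, grey points do not, and lines are medians, which rise from 2.69 at 0 libraries to 12.1 at 3.

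In brainstem K27M cultures, where controls had no peak by the choice of regions, few members had H3K27me3. The share was 4.28% in culture 59 and 5.88% in culture 61, against 58.2% and 61.9% of shared regions. Across tissues, members had a peak in 20.0 ± 4.85% (SD, n = 3) of telencephalon K27M and 5.08 ± 1.13% (SD, n = 2) of brainstem K27M libraries on average. The difference was 14.9 percentage points, every telencephalon K27M library lay above both brainstem ones, and a two-sided exact permutation test over 10 arrangements gave p = 0.1, the smallest value possible. The tissue difference seen in controls was thus also present among the mutant libraries, which had no part in the choice, but 3 against 2 cultures cannot pass a 0.05 threshold. The difference fell to 3.36 percentage points without brainstem culture 59 and to 11.8 without brainstem culture 61, each with 1 brainstem K27M library left. It was 59.4 and 57.1 without telencephalon cultures 60 and 61. The exact p was 0.2 when brainstem peaks were subtracted first, with a minimum length of 500 bp (a difference of 23.6), with a fold enrichment limit of 3, with equal peak numbers, and with 1 member per Control 60 peak (9.23, chosen after seeing the data).

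**Figure D3:**
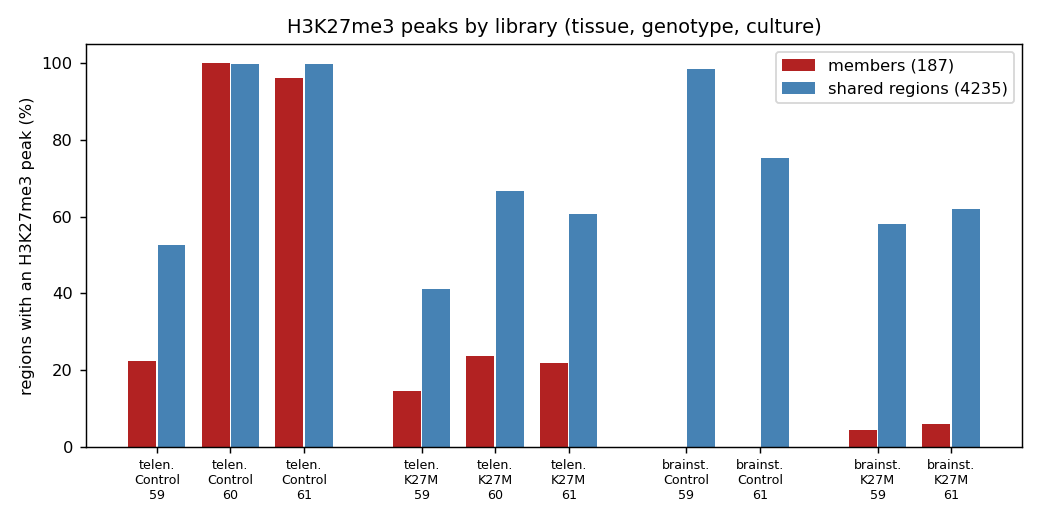
Percentage of members (red, 187) and of shared regions (blue, 4235) with an H3K27me3 peak in each of the 10 libraries, named by tissue, genotype and culture. Control bars follow from the choice of regions, and members lie below shared regions in each of the 5 K27M libraries.

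H3K4me3 was present in the brainstem at most members. A peak was found on 80.7% of members in brainstem Control 59, 81.3% in Control 61, 87.7% in K27M 59 and 75.9% in K27M 61. The shares at shared regions were 82.0, 77.0, 82.5 and 69.4%. The difference of 3.72 ± 3.46 percentage points (SD, n = 4 libraries) was positive in 3 of 4 libraries, and a two-sided exact sign-flip test gave p = 0.25 with a smallest possible value of 0.13. These 4 libraries come from 2 cultures, and with Control and K27M averaged by culture the differences were 1.98 and 5.46, with an exact p of 0.5, the smallest 2 cultures allow. The mean over libraries was −7.31 percentage points when members were chosen without telencephalon culture 60, and −0.867 without culture 61, but 16.8 with the length classes of the members. Both brainstem controls had an H3K4me3 peak on 145 of 187 members, against 74.6% of all 4422 regions, and neither had one on 29.

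Where an H3K4me3 peak was present, it was more enriched at members. The median fold enrichment was 16.4 at members and 11.1 at shared regions in brainstem Control 59, and 9.84 and 7.39 in Control 61. In brainstem K27M it was 18.2 and 12.1 in culture 59 and 10.5 and 7.54 in culture 61. The log2 ratio of these medians was 0.51 ± 0.08 (SD, n = 4), positive in 4 of 4 libraries, with an exact sign-flip p of 0.13, the smallest 4 libraries allow. Averaged by culture it was 0.57 and 0.44 in cultures 59 and 61, with an exact p of 0.5. In telencephalon K27M it was 0.42 ± 0.14 (SD, n = 3), positive in 3 of 3, with an exact p of 0.25. This measure was chosen after the values were seen.

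**Figure D4:**
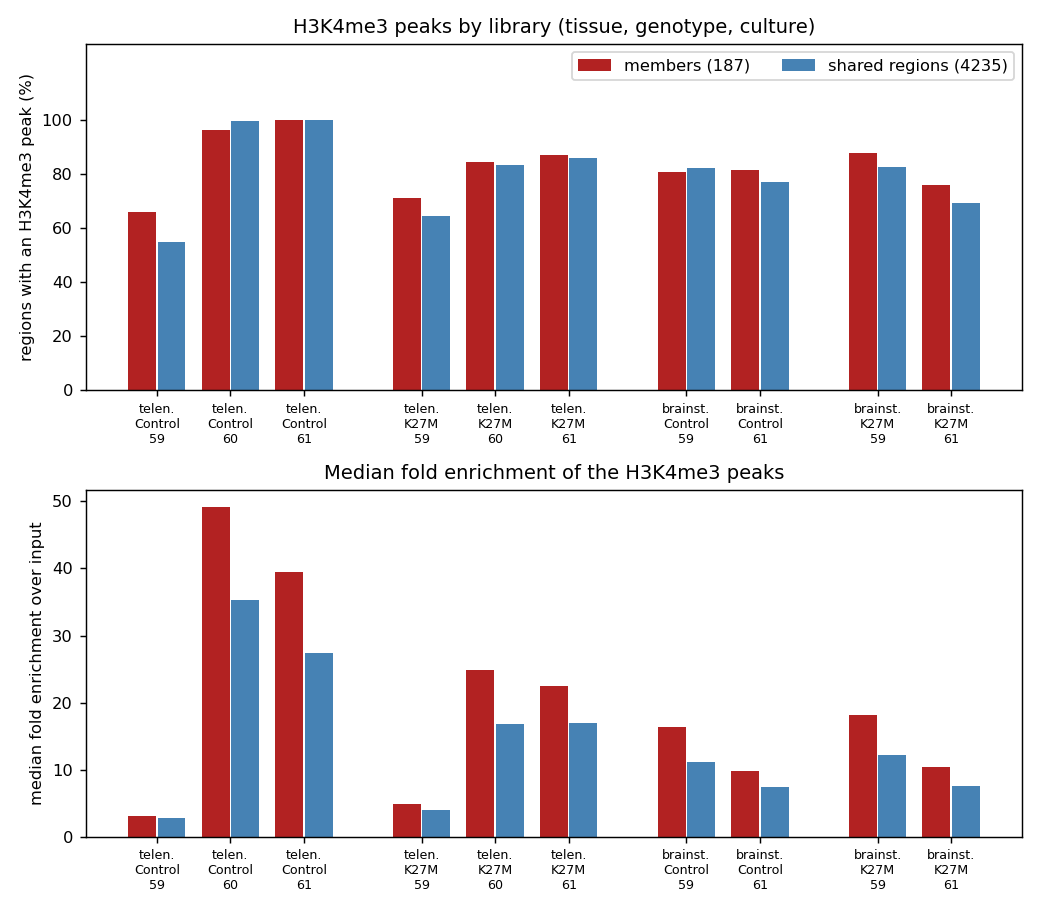
Upper panel, percentage of members (red) and shared regions (blue) with an H3K4me3 peak in each library. Lower panel, median fold enrichment over input of the H3K4me3 peaks on them. In the lower panel members exceed shared regions in all 10 libraries, and both telencephalon 59 libraries have the lowest medians, 3.02 and 4.88 at members.

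K27M against Control in the telencephalon can be compared with less circularity where the telencephalon lists of the culture tested did not choose the regions. Regions were therefore chosen again from the other 2 telencephalon controls, both of which had to carry both marks. The brainstem controls of cultures 59 and 61 still served to exclude regions, also when the culture of that number was tested. With culture 59 held out there were 171 regions, of which 29 had H3K27me3 in its Control and 22 in its K27M library. With culture 60 held out, 16 of 16 regions had it in Control and 11 in K27M. With culture 61 held out, 13 of 14 had it in Control and 10 in K27M. H3K27me3 was thus less frequent in K27M in 3 of 3 cultures, by 18.9 ± 13.8 percentage points (SD, n = 3), with a two-sided exact sign-flip p of 0.25. The difference was −34.1 without culture 59 and −9.81 without culture 60. In these 2 settings a single control chose the regions for each remaining culture, so the regions differ from those above. The difference was −9.49 with equal peak numbers, and −5.38 when H3K27me3 peaks needed a fold enrichment of 3. H3K4me3 was found on 110 regions in Control and 125 in K27M in culture 59, on 13 and 14 in culture 60, and on 14 and 14 in culture 61. The H3K4me3 difference was 5.01 ± 4.52 percentage points with an exact p of 0.5. It was −7.28 without culture 59, again on regions chosen from a single control and not on those listed here.

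The longest and most enriched members lay at Irx genes, which encode Iroquois homeodomain factors that pattern the midbrain, hindbrain and spinal cord. Of the 26 members kept in every telencephalon K27M library, 13 had an Irx gene as the nearest protein-coding start, of 14 such members in all. The 26 formed 12 groups when gaps above 100 kb were used to separate them, so they are not independent sites. Members of a group can share 1 broad peak and its fold enrichment.

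The Irx5 member was the longest of all, with 4270 bp at chr8:92356551-92360820 over the start and first part of the gene. Its H3K27me3 fold enrichment was 3.40, 14.7 and 7.08 in telencephalon Control 59, 60 and 61, and 7.58, 21.6 and 31.7 in the K27M libraries of the same cultures. No brainstem library had an H3K27me3 peak on it. H3K4me3 was present in all 10 libraries, at 21.1 and 15.3 in brainstem Control 59 and 61, 24.4 and 15.5 in brainstem K27M, 2.36, 85.5 and 55.7 in telencephalon Control, and 3.38, 19.4 and 14.6 in telencephalon K27M. In a 40 kb window around the start, H3K27me3 covered 17.1 to 27.02 kb in telencephalon Control and 18.3 to 21.5 kb in telencephalon K27M. It covered 1.11 kb in brainstem Control 59 and 0 kb in the other brainstem libraries. The tissues did not overlap for H3K4me3 either, which covered 9.97 to 11.7 kb in brainstem libraries and 1.22 to 7.68 kb in telencephalon ones.

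At Irx2, 5 members spread over chr13:72623928-72640616, and the brainstem lists had no H3K27me3 peak in a 60 kb window. H3K27me3 covered 23.9, 38.4 and 29.5 kb of that window in telencephalon Control 59, 60 and 61 and 20.0, 21.8 and 23.3 kb in K27M. The member that begins 224 bp after the 5′ start of Irx2 (chr13:72629044-72629978) had a fold enrichment of 3.13, 11.8 and 3.47 in Control and 6.74, 19.0 and 27.4 in K27M. H3K4me3 covered 10.9 to 14.2 kb in brainstem libraries and 2.24 to 7.99 kb in telencephalon ones. On the same chromosome 3 Irx1 members, the longest 1301 bp at chr13:71962068-71963368, had H3K27me3 in all 3 K27M libraries at 4.64, 10.8 and 18.9, against 3.27, 12.4 and 3.10 in the longest member's controls.

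The HoxA cluster carries homeobox genes that are active in hindbrain and spinal cord and silenced in the forebrain. A 67 kb window from Hoxa2 to Hoxa9 held 3 members, at Hoxa2 (444 bp, chr6:52164110-52164553), inside Hoxa3 (640 bp, chr6:52172240-52172879) and at Hoxa5 (1633 bp, chr6:52203226-52204858). The Hoxa5 member had an H3K27me3 fold enrichment of 5.18, 19.6 and 11.6 in telencephalon Control 59, 60 and 61 and 11.0, 27.2 and 31.8 in telencephalon K27M. H3K27me3 covered all 67 kb in each of the 6 telencephalon libraries, and 48.7 and 22.2 kb in brainstem Control 59 and 61. Both brainstem controls left Hoxa2 and the Hoxa5 start free, and every library had H3K27me3 peaks over Hoxa7.

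Brainstem K27M libraries had H3K27me3 on parts of the HoxA window that both brainstem controls left free. They covered 47.8 kb of it in culture 59 and all 67 kb in culture 61, so culture 59 was close to its control and culture 61 above its own. The Hoxa5 member had a peak in both, at a fold enrichment of 24.1 and 27.3, although a brainstem control peak lay 168 bp away. The Hoxa2 member had a peak in culture 61 alone, at 27.3. H3K4me3 covered 23.0 and 36.1 kb in brainstem Control and 53.1 and 31.6 kb in brainstem K27M. All 4 values lay above those of the telencephalon, 0.414 to 14.7 kb in Control and 0.320 to 1.76 kb in K27M.

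**Figure D5:**
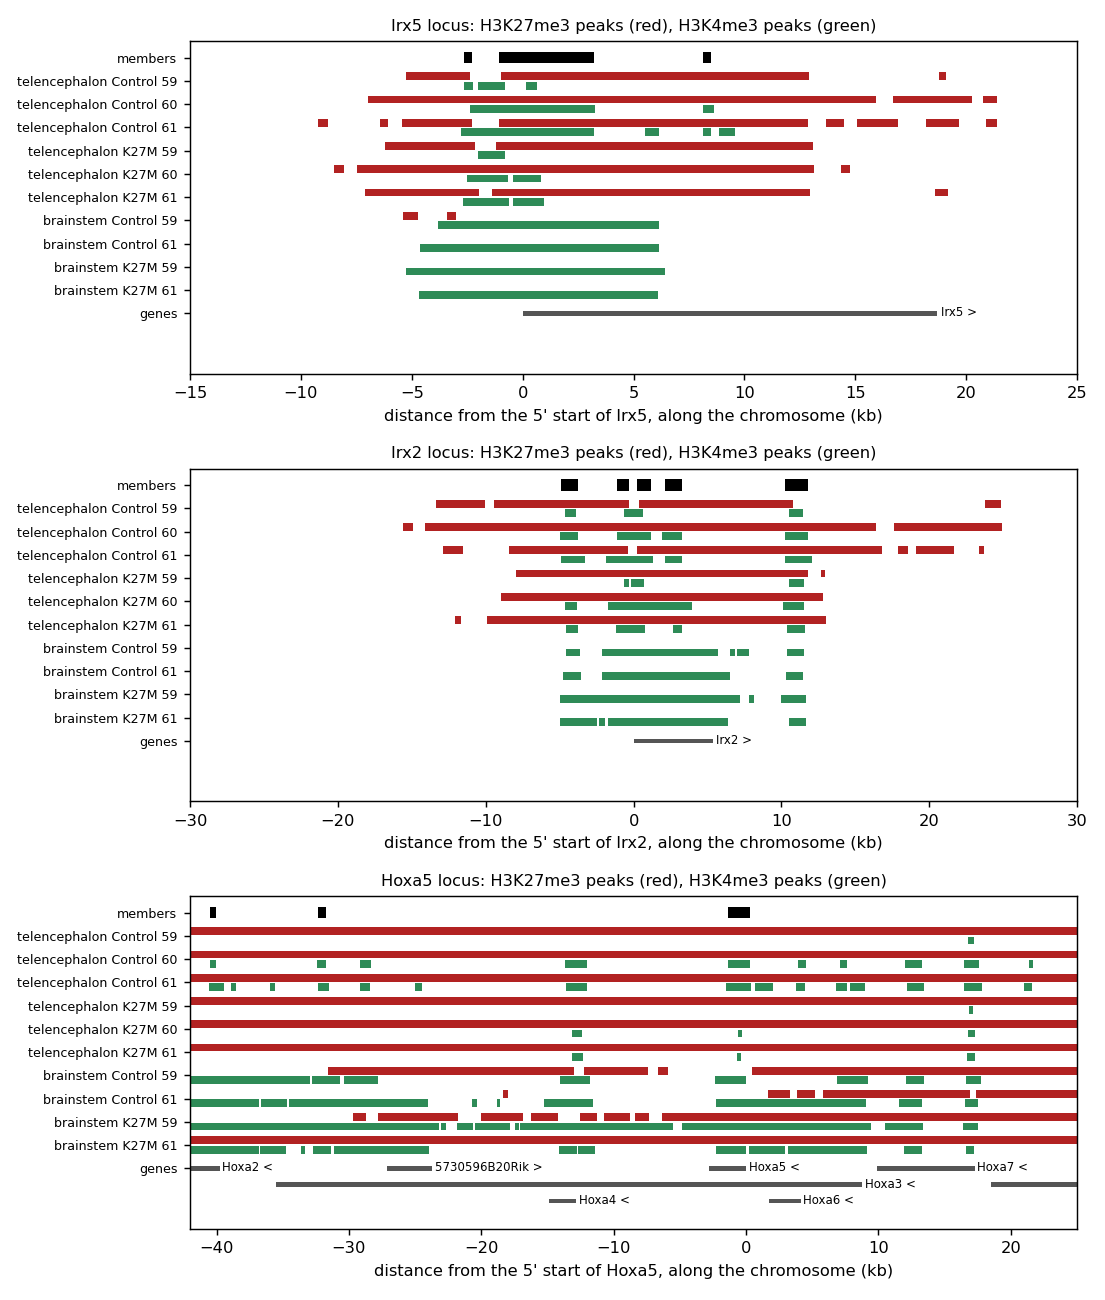
Peaks of each library at 3 loci, by distance in kb from the 5′ start of Irx5, Irx2 and Hoxa5 along the chromosome. Red bars are H3K27me3 peaks, green bars H3K4me3 peaks, black bars members and grey bars genes with their direction. H3K27me3 peaks lie over the members in the telencephalon libraries, while at Irx2 no brainstem library has a peak and at HoxA both brainstem controls leave the members free.

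Only 5 members had an H3K27me3 peak in both brainstem K27M libraries, against 53.4% of all 4422 regions. They were the Hoxa5 member, 2 members at Hlx, 1 over an exon of Celf5 and 1 at the promoter of the non-coding gene Gm26592. Hlx encodes a homeobox factor, and its promoter member (860 bp, chr1:184731393-184732252) had fold enrichments of 15.0 and 20.4 in brainstem K27M 59 and 61. In a 30 kb window around Hlx, H3K27me3 covered 8.06 and 9.52 kb in brainstem Control and 23.0 and 22.9 kb in brainstem K27M. The 6 telencephalon libraries covered 22.0 to 23.9 kb, so brainstem K27M lay inside that range and brainstem Control below it. The distance to the nearest brainstem control peak was 168 bp at Hoxa5 and between 299 and 3019 bp at the other 4.

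Other kept members lay outside Irx and Hox genes. They included 2 near Meis1, which encodes a partner of Hox proteins, with 1 of them at the promoter of the non-coding gene 8430419K02Rik, 2 around Skap2, next to the HoxA cluster, 1 near Nr2f2, an orphan nuclear receptor gene, and 1 near Zfp503, a zinc finger gene. The 1384 bp member near Nr2f2 (chr7:70350439-70351822) had an H3K27me3 fold enrichment of 4.17, 14.0 and 10.1 in telencephalon Control and 9.17, 21.6 and 25.5 in K27M, with 3.18 in brainstem K27M 61. The Skap2 promoter member had 5.87, 10.2 and 5.12 in Control and 7.79, 13.0 and 17.2 in K27M.

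Among the kept members the fold enrichment was mostly higher in K27M than in the Control of the same culture. It was higher at 24 of 25 members with both peaks in culture 59, 19 of 26 in culture 60 and 23 of 23 in culture 61, with median ratios of 2.12, 1.43 and 3.77. At shared regions kept in all 3 K27M libraries the median ratios were 1.38, 1.08 and 1.69. Fold enrichment is relative to the input and to the rest of the same library, so these ratios do not give amounts of the mark. Control peaks had been used to choose the members. Kept members and kept shared regions were defined by their K27M peaks, so neither side of the ratio is free of the choice. The 26 kept members formed 12 groups and can share a broad peak, so these counts are a description.

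Of the 137 members without a telencephalon K27M peak, 94 had a fold enrichment below 3 in Control 60, 32 had one from 3 to below 5 and 11 had 5 or more. Cd24a, which encodes a cell surface glycoprotein of neural precursors, had an 1830 bp member (chr10:43578839-43580668) with H3K27me3 at 1.87, 4.74 and 3.69 in telencephalon Control. No telencephalon K27M library had a peak there, and brainstem K27M 61 had one at 3.01. Frmd4a, Tenm2 and Cdh12, the last 2 genes of cell adhesion, were the coding genes with a promoter member that had a peak in all 3 controls and in no K27M library of either tissue. The Frmd4a and Tenm2 members lay at promoters of transcripts that start inside these genes, far from the 5′ start of the gene. The Frmd4a member (542 bp) had 3.36, 6.00 and 3.70 in controls, the Tenm2 member (496 bp) 3.30, 3.12 and 2.56, and the Cdh12 member (473 bp) 2.66, 2.52 and 2.43. H3K4me3 stayed present at these 4 members in all 10 libraries.

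Of the 20807 autosomal protein-coding genes, 115 (0.553%) had a member at a promoter and 2794 a shared region. Of 52 midbrain, hindbrain and spinal transcription factors 4 had a member (Irx1, Irx2, Irx5 and Nkx2-2), of 39 Hox genes 3 did, Hoxa2 and Hoxa5 among them, and of 30 forebrain transcription factors 1 did (Pax6). Shared regions were at 41, 22 and 26 genes of these 3 lists. Members at the Hox and Irx promoters had H3K27me3 in every telencephalon K27M library, and the others did not. The Nkx2-2 member, 295 bp at a transcription factor gene of the oligodendrocyte lineage, had 2.27 and 2.25 in Control 60 and 61 and 2.52 and 6.77 in K27M 60 and 61. The Pax6 member, 299 bp at a gene of forebrain and eye development, had 2.40 and 1.91 in Control 60 and 61 and no K27M peak.

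Of 59 genes of the BMP and TGF-beta pathway 4 had a member (6.78%, against 0.553% of all coding genes). Shared regions were also more frequent there, at 28 genes (47.5%, against 13.4% of all coding genes). With an H3K27me3 fold enrichment limit of 3, and with equal peak numbers, Tgfb2, Tgfbr2 and Ltbp4 had no member. The 4 were the ligand Tgfb2, the receptor Tgfbr2, the latent TGF-beta binding protein Ltbp4 and the target Id1. Their H3K27me3 fold enrichment in Control 60 and 61 was 2.24 and 2.90 (Tgfb2), 2.84 and 2.31 (Tgfbr2), 3.19 and 2.38 (Ltbp4) and 4.60 and 2.10 (Id1), with no peak in Control 59 or in any K27M library. Of 57 Wnt pathway genes 2 had a member (3.51%) and 42 a shared region. The 2 were the ligand Wnt7b and Axin2, a feedback inhibitor. The 1646 bp Wnt7b member had 7.75 and 5.92 in Control 60 and 61 and 2.76 and 5.85 in K27M 60 and 61. The Axin2 member had 2.79 and 1.99 in controls and no K27M peak.

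Of 26 Notch pathway genes 2 had a member (7.69%, the same share as for the Hox genes) and 10 a shared region. Maml3, a coactivator of Notch, had 1573 bp with 7.00 and 2.89 in Control 60 and 61 and 6.25 and 2.75 in K27M 60 and 61. The receptor Notch4 had 301 bp inside the gene, far from its 5′ start. This Notch4 member had 2.30 and 2.05 in Control 60 and 61 and no K27M peak. Of 71 axon guidance genes 1 did, Ntn1, which encodes the guidance cue netrin 1, with a peak in telencephalon K27M 61 alone. Of 42 collagens 2 did, Col18a1 with a peak in K27M 60 alone and Col9a2 with none. Among ion channels, receptors and transporters, members were at Cacnb3, Gabbr1, Slc2a3 and Slc5a5, and none of these 4 had a K27M peak. In all, 12 of 27 gene lists had a member and 15, among them Hedgehog, FGF, forkhead, Sox and T-box genes, had none. Counts of 1 to 4 genes per list are a description.

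At 29 members neither brainstem control had H3K4me3. The Slc5a5 member, at the sodium iodide symporter gene, had H3K4me3 at 11.4 and 5.44 in telencephalon Control 60 and 61 and in no other library. Col9a2 had 7.65 and 8.34 in the same libraries and in no other, and Cacnb3 had 5.61 and 4.81 there and 3.28 in telencephalon K27M 61. On these 3 members both marks were thus listed in the telencephalon and neither in the brainstem. This does not extend to the whole Cacnb3 promoter. The bases chosen there rose from 416 to 1266 without brainstem Control 59, which had an H3K27me3 peak on a further stretch.

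The number of members changed with single cultures. Without brainstem Control 59 the same choice gave 1239 regions, and without brainstem Control 61 it gave 249. Without both lists of telencephalon culture 60, where each of the other 2 controls had to carry both marks, it gave 16, and without those of culture 61 it gave 14. With equal numbers of H3K27me3 peaks in every list 174 regions were found, but only 45 of the 187 members overlapped one of them.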

How the data were processed

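ChIP-seq for both marks was available as peak lists, 1 for each of 20 libraries. The authors trimmed reads with Trim Galore (0.6.7), aligned them to mm10 with BWA (0.7.17-r1188) in an nf-core pipeline, masked the mm10 blacklist and ran MACS2 (2.2.7.1) on every library with its own input, narrow for H3K4me3 and broad (cutoff 0.1) for H3K27me3. Each deposited peak carries a fold enrichment, which is a ratio to input, and 2 significance values as −log10 of p and of q. Inputs, whose reads entered these calls, were not analysed here, and depth is not part of the lists.

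Intervals were merged and intersected with scipy (1.17.1) and numpy (2.4.6) under Python (3.11.15). A region had a peak when at least 1 bp overlapped, and its value is the highest fold enrichment among them. Genes came from GENCODE M21, and sequence, read with samtools (1.23.1), from GRCm38.p6. Groups came from sample titles. Libraries, not regions, were the units of exact permutation tests. On simulated data the rule recovered 60 of 60 planted regions and 0 of 120 others.

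Control and K27M cultures of a number are matched pairs by the study's methods. Deviations from group means correlated at 0.11, 0.17 and −0.05 for H3K27me3 and at 0.51, 0.32 and 0.42 for H3K4me3 in cultures 59, 60 and 61. Members and gene lists were chosen with earlier results of these data known. Genes were named by length of the member at a coding promoter (12 longest with H3K27me3 in all 3 controls, the 6 longest of each pattern in K27M) and by gene list. Members named beyond this rule, near Nr2f2, Meis1, Zfp503, Sept9 and Celf5 and at Gm26592, 8430419K02Rik and Id1, were picked after their values were seen. Some genes that meet the rule are not reported here.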

Additional observations from a re-analysis of the deposited data

How the results depend on the processing

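The comparisons between members and shared regions, between tissues and between K27M and Control for H3K27me3 kept their direction under every alternative tried, but no design here can pass 0.05. The number of members was 402 when bases under brainstem control peaks were subtracted first, 79 with a minimum length of 500 bp, 91 when only members 5000 bp or more from a brainstem control peak were counted (chosen after seeing the data), and 14 to 1239 when 1 culture was left out. The share at promoters was 75.9% at 500 bp minimum length, 51.3% with promoters of 500 bp on both sides, and 57.1 to 75.0% with 1 culture left out. The patterning and Hox genes with a member numbered 8, then 5 at 500 bp minimum length and 4 to 15 with 1 culture left out. The H3K4me3 difference to shared regions in the brainstem ranged from −7.31 to 5.69 percentage points with 1 culture left out, and was −0.500 at members 5000 bp or more from a brainstem control peak. The held-out H3K4me3 difference ranged from −7.28 to 12.8 with 1 telencephalon culture left out, where a single control chose the regions for each remaining culture. The causes were not tested.

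The replicate block, with cultures 59 and 61 paired across tissues, gave a difference between telencephalon and brainstem K27M of 13.1 percentage points (exact p = 0.5, the smallest 2 pairs allow). Without the replicate block between Control and K27M, the exact p of the held-out comparison was 0.5 for H3K27me3 and 0.8 for H3K4me3. Members of the main choice that overlapped a region of the alternative numbered 69 with a −log10 q of at least 3, 47 with an H3K27me3 fold enrichment of at least 3 and 45 with equal numbers of H3K27me3 peaks, of 187. Of 30 named genes with a member, 13, 15 and 17 had none under these 3 settings.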

Other observations

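Chromosome X was left out of the choice of members. It held 351 stretches under both marks in telencephalon controls, of which 253 (72.1%) had no brainstem control H3K27me3 peak, against 4.23% on the autosomes. The share of H3K27me3 peaks on chromosome X was 32.3% and 20.9% in telencephalon Control 60 and 61, 1.16% in telencephalon Control 59, and 0.826% and 1.03% in brainstem Control 59 and 61. In K27M libraries it was 16.8, 51.5 and 22.4% in telencephalon cultures 59, 60 and 61 and 13.4 and 39.0% in brainstem cultures 59 and 61. Telencephalon Control 60 and 61, the libraries that carry most members, thus stood apart from the other 3 controls on this chromosome as well. The labels do not give the sex of the pups, and the part of this difference in the autosomal members was not tested.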
